A study of Mus musculus with 9 samples.

Results

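The matrix metalloproteinases (MMPs), the ADAM and ADAMTS proteases and their tissue inhibitors (TIMPs) were followed in mouse tumours treated with digoxin. The genes were taken by name, as every row whose symbol starts with Mmp, Adam, Adamts or Timp followed by a digit, with 1 symbol left out. This gave 69 of the 35321 genes in the table. Of these, 30 were detected, which here means at least 1 FPKM (sequenced fragments scaled to transcript length and library depth) in at least 3 of the 9 samples, a level that 13687 genes of the table reached. The tumours were subcutaneous growths of LLC, a Lewis lung carcinoma cell line, in the flank of male C57BL/6 hosts, 4 to 5 weeks old. From 5 days after injection the hosts received, by the intraperitoneal route, PBS as vehicle or digoxin, at a low dose (0.1 mg/kg) or a high dose (1 mg/kg). Digoxin, a cardiac glycoside, blocks the sodium and potassium pump of the cell membrane. Each group had 3 bulk tumour samples, all from 1 cell line in 1 strain, and the duration of dosing is not given in the sources used here. That samples within a group came from separate mice is not stated, so the p-values measure the spread between these samples only, which may be technical.

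MMPs are zinc proteases made as inactive precursors. Most are secreted, and the membrane-type MMPs stay at the cell surface. Collagenases cut fibrillar collagen, gelatinases cut denatured and basement membrane collagen, and stromelysins cut proteoglycans, fibronectin and laminin and activate other MMP precursors. ADAMs are membrane proteases, several of which release the outer parts of growth factors, cytokines, Notch and adhesion proteins. ADAMTS proteases are secreted and cut proteoglycans, procollagens and other matrix proteins. TIMPs bind the active site of MMPs, and some also inhibit ADAM or ADAMTS proteases. In tumours these genes are read in the cancer cells as well as in fibroblasts, macrophages, neutrophils and vessel cells, and in bulk samples fewer cells of a type cannot be told apart from less RNA per cell.

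The depths recovered from the spacing of the FPKM values were 48649867 to 51810956 in the vehicle libraries, 42870997 to 43319883 at the low dose and 40517062 to 42252370 at the high dose. On the first principal component of all tested genes, which held 69.4% of the variance, the vehicle libraries lay between -55.0 and -47.6 and most digoxin libraries between 35.7 and 37.9. Low-dose sample 2 lay at -0.60 and high-dose sample 1 at 9.12. These 2 libraries stand apart from the rest of their groups, so results that rest on them are also given without them. On this component they are the digoxin libraries nearest to vehicle. Leaving them out thus favours a difference from vehicle on this component. It also leaves 2 samples per dose, so calls gained that way are descriptions only. On the second component, with 12.4% of the variance, high-dose sample 1 lay at -43.95 and all other libraries between -1.17 and 19.07. For some members leaving both out made the change smaller, as for Adam8, Mmp12 and Mmp13 at the high dose. Among epithelial markers, Epcam and Cdh1 did not exceed 1 FPKM in any sample. Krt8 was at 1.70 to 4.13 FPKM with vehicle and 58.7 to 126 with digoxin, and Krt18 at 43.1 to 63.0 and 0.932 to 16.8 FPKM.

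Digoxin at both doses went with lower Mmp3, Mmp14, Adam19 and Timp2 and with higher Mmp13, Mmp19, Adam8 and Timp1. At the low dose against vehicle, 20 of the 30 detected genes were called at an adjusted p under 0.05 in limma (66.7%), 10 higher and 10 lower, where 42.2% of all tested genes were called, 21.6% higher and 20.7% lower. At the high dose against vehicle, 17 were called (56.7%), 8 higher and 9 lower, where 45.9% of all genes were called, 20.7% higher and 25.2% lower. Mmp27, Adam33 and Adamts2, which make 3 of the 10 higher calls at the low dose, reached 1 FPKM in digoxin samples only, so they were tested because they are high there, and the count of higher genes is no support for a rise of the family. When genes were instead admitted by their mean over the 9 samples (5 FPKM or more), 14 of 21 members (66.7%) were called at the low dose and 13 (61.9%) at the high dose, beside 47.4% and 50.8% of all such genes. Quantile normalisation gave 6 higher and 12 lower at the low dose and 6 higher and 10 lower at the high dose. All 13687 tested genes tilted the same way there. At the low dose 2403 were higher and 3552 lower, and at the high dose 2610 were higher and 3761 lower. The median absolute log2 fold change over the detected genes was 0.64 at the low dose and 0.70 at the high dose, and over all tested genes it was 0.32 and 0.33. The signed medians were -0.02 and -0.07, beside 0.02 and -0.04 over all tested genes. Every log2 fold change is of FPKM + 1, so that changes of low genes are understated.

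The count at the low dose was the less stable of the pair. It was 10, 9 and 8 without vehicle sample 1, 2 or 3, where 31.6%, 25.5% and 25.4% of all tested genes were called. It was 10 and 11 without low-dose sample 1 or 3, beside 27.3% and 24.9% of all tested genes, so the share fell over all genes as well. Without both libraries that stand apart it was 24 at the low dose and 21 at the high dose, and the share over all tested genes was 61.5% and 61.3%. The values of the 3 digoxin samples and the 3 vehicle samples did not overlap for 21 of the 30 genes at each dose (70.0%), beside 60.2% of all tested genes at the low dose and 58.3% at the high dose. Both doses were compared with the same vehicle libraries. Adam19, Adamts14, Mmp14, Mmp19, Timp1 and Timp2 were called at both doses under every alternative that tested them.

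**Figure D1:**
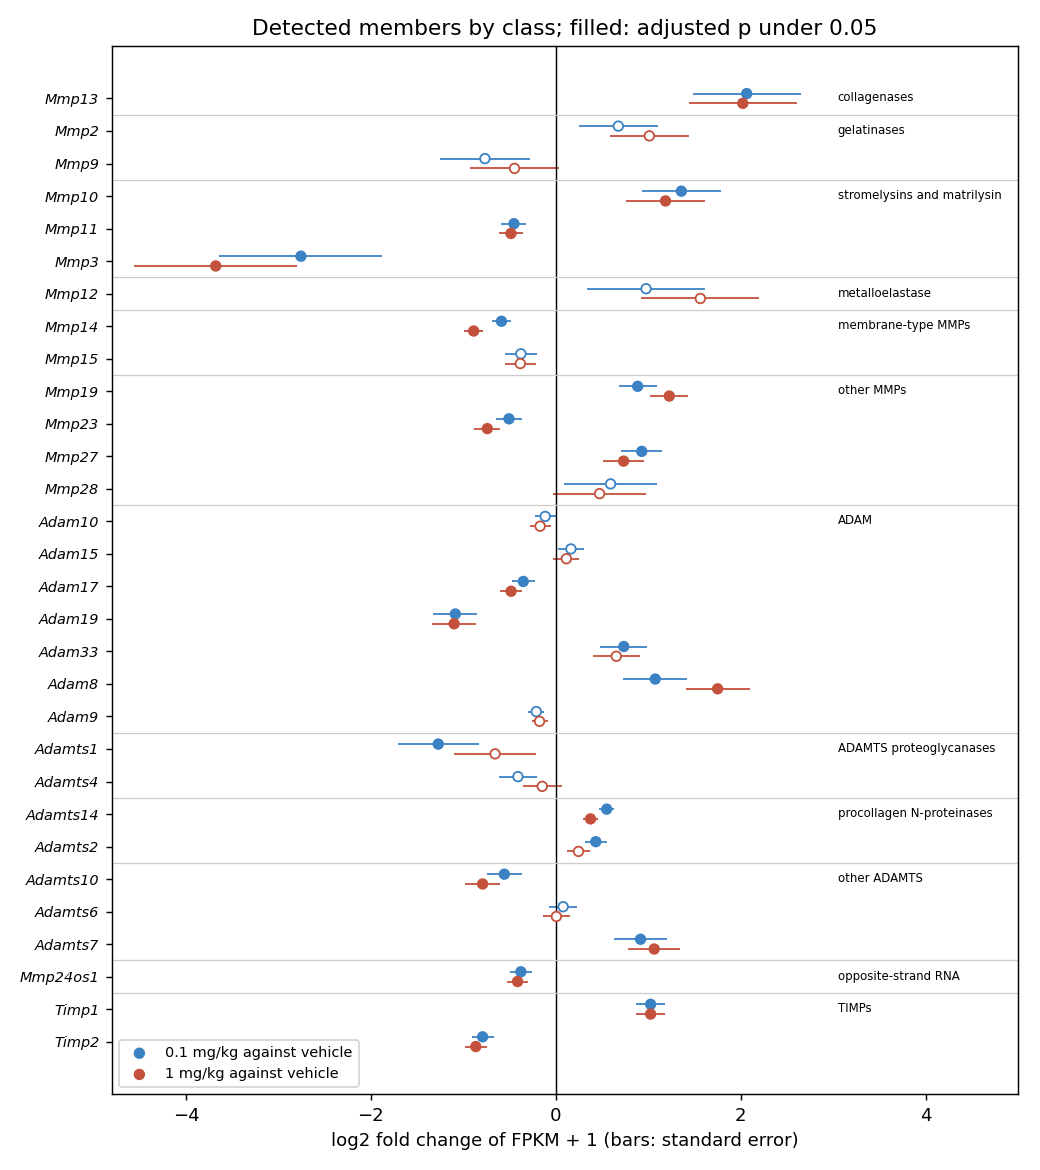
Log2 fold change of FPKM + 1 (x axis) for the 30 detected genes, grouped by class, at the low dose (blue) and the high dose (red) against vehicle, with bars for the standard error and filled points for an adjusted p under 0.05. Mmp3 lies farthest to the left, at -2.76 and -3.68, and Mmp13 farthest to the right at the low dose, at 2.06.

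**Figure D2:**
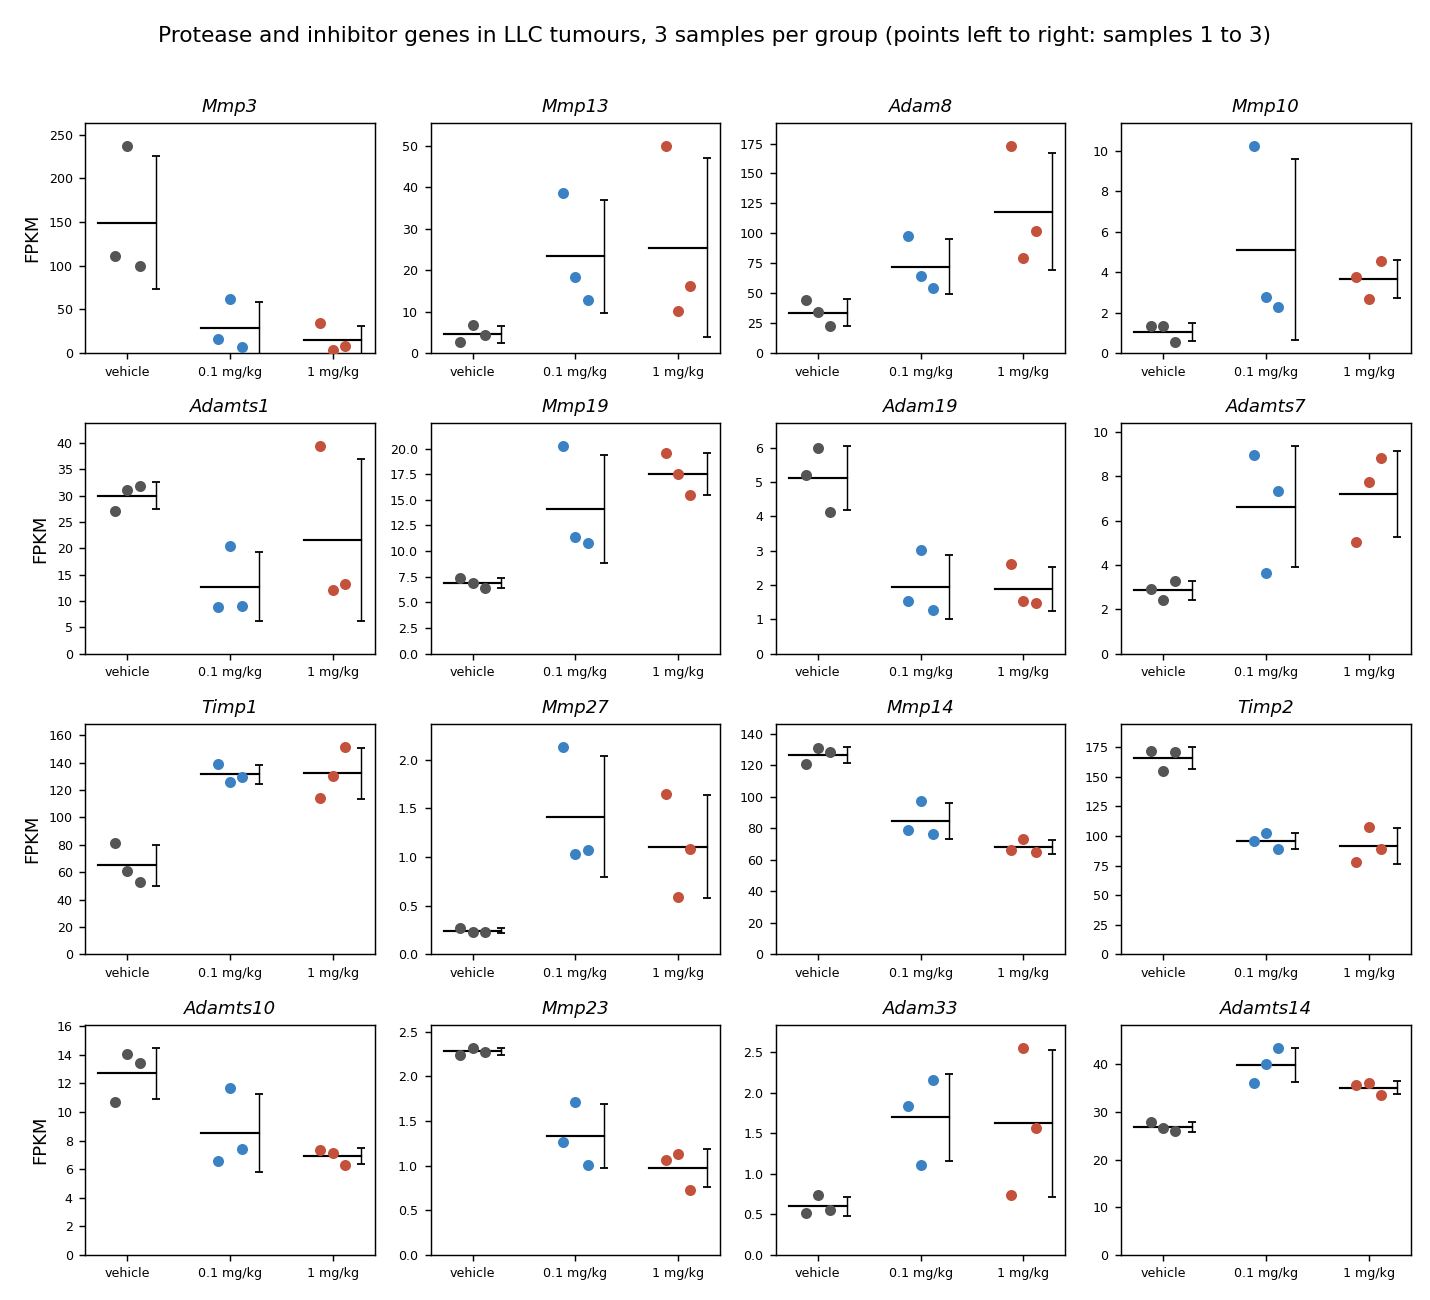
FPKM (y axis, from 0) of the 16 named genes with the largest absolute fold changes in the 3 vehicle, 3 low-dose and 3 high-dose samples, with the mean as a line and the SD as a bar (bars are cut at 0). The vehicle samples of Mmp3, 99.8 to 238 FPKM, all lie above the digoxin samples, and those of Timp1, 52.6 to 81.5 FPKM, all lie below them.

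FPKM are scaled to length, so levels can be compared roughly between genes. The lengths that gave whole reads for 65 of the 69 members were those of all annotated exons merged. A gene that uses few of its exons is then understated. In vehicle tumours the most abundant member was Timp2, at 166 ± 9.28 FPKM (SD, n = 3), followed by Mmp3 at 149 ± 76.5 and Mmp14 at 127 ± 5.08. The spread of Mmp3 covered both of its neighbours in this order. Timp1 came next at 65.1 ± 14.9 FPKM. Below it, Adam9 at 37.4 ± 1.51, Adam8 at 33.8 ± 11.2, Mmp9 at 33.2 ± 5.99 and Adam10 at 32.4 ± 1.68 FPKM each overlapped with the next in this order. Adam9 lay above Adam10 in every vehicle sample. At the low dose the order was Timp1 at 132 ± 7.0, Timp2 at 95.6 ± 6.66 and Mmp14 at 84.4 ± 11.5 FPKM, the last pair overlapping, with Mmp3 in place 8 at 28.4 ± 29.6. At the high dose Timp1 at 132 ± 18.5 and Adam8 at 118 ± 49.1 FPKM overlapped, and Timp2, which overlapped with Adam8, followed at 91.5 ± 15.1.

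Mmp3 and Mmp13, whose changes were the largest of the named members on the scale of log2(FPKM + 1), belong to 1 cluster. In the mouse annotation the members Mmp13, Mmp12, Mmp1b, Mmp3, Mmp1a, Mmp10, Mmp27 and Mmp20 lie in this order on chromosome 9, with the noncoding gene Gm31751 between Mmp10 and Mmp27. Of these, 5 were detected. Mmp3, a stromelysin, stood at 111, 238 and 99.8 FPKM in the vehicle samples, at 15.7, 62.2 and 7.27 at the low dose and at 33.9, 3.29 and 7.62 at the high dose. All 6 digoxin samples lay below all vehicle samples, and the highest of each dose was the library that stands apart. Mmp3 fell at the low dose by 2.76 on the log2 scale (standard error 0.88, adjusted p = 0.0347, limma) and at the high dose by 3.68 (standard error 0.88, adjusted p = 0.0104). Without both libraries that stand apart the log2 fold changes were -3.57 and -4.52. The call at the low dose was lost without any single vehicle sample and without sample 1 or 3 at that dose (adjusted p up to 0.121), and the call at the high dose held without each library in turn.

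Mmp13, Mmp10 and Mmp27 changed the other way. Mmp13, a collagenase, stood at 2.54, 6.74 and 4.28 FPKM with vehicle, at 38.8, 18.4 and 12.8 at the low dose and at 50.1, 10.1 and 16.1 at the high dose, and no digoxin sample overlapped with vehicle. Mmp13 rose by a log2 fold change of 2.06 (standard error 0.58, adjusted p = 0.0222) at the low dose and 2.02 (adjusted p = 0.0218) at the high dose. Its call was lost at both doses without vehicle sample 1 or 3, and at the lower dose also without low-dose sample 1 (adjusted p up to 0.0779). Mmp10, another stromelysin, stood at 1.31, 1.31 and 0.538 FPKM with vehicle, at 10.2, 2.77 and 2.27 at the low dose and at 3.77, 2.68 and 4.54 at the high dose. Mmp10 rose by 1.36 (standard error 0.43, adjusted p = 0.0329) and 1.19 (adjusted p = 0.0489) on the log2 scale. The second of these calls was lost without any single vehicle sample and without any single sample at the high dose (adjusted p up to 0.15), and the first without any single vehicle sample (adjusted p up to 0.109). Quantile normalisation ended both calls of Mmp10 (adjusted p = 0.0534 and 0.0685), and the second was also lost without both libraries that stand apart (adjusted p = 0.071).

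Mmp27, a little studied secreted MMP, stood near the detection limit, which it passed through digoxin samples only, at 0.226 to 0.27 FPKM with vehicle, 1.03 to 2.13 at the low dose and 0.591 to 1.65 at the high dose. It rose by 0.93 (adjusted p = 0.0121) and 0.73 (adjusted p = 0.027), and the latter call was lost without any single vehicle sample and without high-dose sample 1 or 3 (adjusted p up to 0.0735). Under quantile normalisation neither dose was called (0.59, adjusted p = 0.0957, and 0.50, adjusted p = 0.147). With a pseudocount of 0.01 FPKM in place of 1 its log2 fold change at the low dose was 2.42, above the 2.31 of Mmp13. Mmp12, the metalloelastase of macrophages, was not called. Its values were 4.86, 7.54 and 6.38 FPKM with vehicle, 34.1, 11.8 and 5.29 at the low dose and 40.9, 9.44 and 20.8 at the high dose, with log2 fold changes of 0.98 (adjusted p = 0.24) and 1.56 (adjusted p = 0.0734). The low-dose samples overlapped with vehicle and the high-dose samples did not. The call at the high dose appeared without low-dose sample 1 or 3 or high-dose sample 2 (lowest adjusted p = 0.0339), and in a fit of the 2 groups compared alone (adjusted p = 0.0344).

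**Figure D3:**
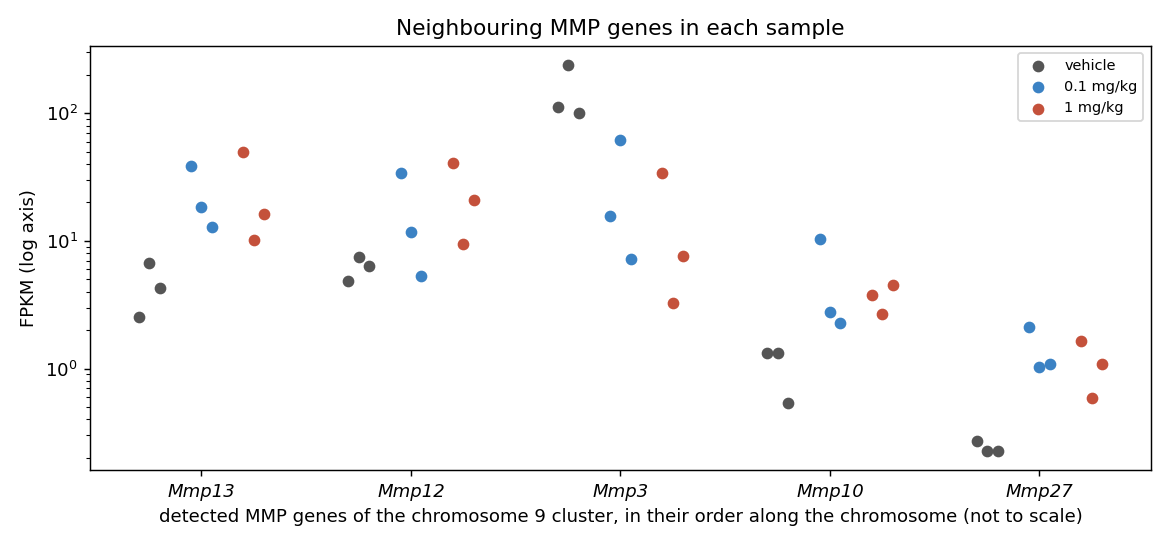
FPKM on a log axis (y) of the 5 detected MMP genes of the chromosome 9 cluster in their order along the chromosome (x, not to scale), 1 point per sample in vehicle (grey), the low dose (blue) and the high dose (red). Mmp3 is lower in all 6 digoxin samples, from 111, 238 and 99.8 FPKM with vehicle, while Mmp13, Mmp10 and Mmp27 are higher in all 6.

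Promoter sequence is shown for 4 genes of this cluster because Mmp3 fell while Mmp13 and Mmp10 rose, and these 4 carry the same short motif. They were chosen for carrying it among the detected genes of the cluster. Mmp1a, Mmp1b and Mmp20, which were not detected, also hold it, and Mmp27, which also rose, has a window without it. The motif searched is TGANTCA, with any base at N. It is wider than TGAGTCA or TGACTCA, the binding letters of AP-1, a factor long known to act on collagenase and stromelysin promoters. The 4 genes shown hold TGAGTCA or TGACTCA, and Mmp20 holds TGAATCA. The motif reads as the same motif on both strands. The stretches shown, from RefSeq on GRCm38.p6, are the 150 bases before the annotated start, on the plus strand, with the motif in capitals. They lie at chr9:7445672-7445821 for Mmp3, chr9:7502192-7502341 for Mmp10, chr9:7347224-7347373 for Mmp12 and chr9:7272364-7272513 for Mmp13.
Mmp3: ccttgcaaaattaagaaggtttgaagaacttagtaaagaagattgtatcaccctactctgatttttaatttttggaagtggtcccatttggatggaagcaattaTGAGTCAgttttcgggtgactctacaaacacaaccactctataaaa
Mmp10: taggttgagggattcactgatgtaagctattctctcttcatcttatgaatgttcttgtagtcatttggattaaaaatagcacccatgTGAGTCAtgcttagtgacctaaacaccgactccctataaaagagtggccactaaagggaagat
Mmp12: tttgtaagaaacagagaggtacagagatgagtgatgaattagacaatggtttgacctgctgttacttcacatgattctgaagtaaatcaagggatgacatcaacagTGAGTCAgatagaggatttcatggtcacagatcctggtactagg
Mmp13: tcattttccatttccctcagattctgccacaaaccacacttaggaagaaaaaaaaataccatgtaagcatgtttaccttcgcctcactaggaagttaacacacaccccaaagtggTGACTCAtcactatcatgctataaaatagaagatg
The first base of the motif lay at -46 from the start in Mmp3, -63 in Mmp10, -44 in Mmp12 and -35 in Mmp13. For Mmp12 it was found in 1 of 2 annotated windows. Over windows of 250 bases before to 50 bases after the start, the motif was present in 7.81% of the 32851 windows of the table and in at least 1 window of 8.97% of its 27025 symbols. A window was at hand for 20 of the 30 detected members, and 5 of them held the motif, the fifth being Adam19 at -131 in 1 of 3 windows. Among all 69 members, 40 had a window and 9 held it. A match describes letters only.

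The gelatinases were not called at either dose. Mmp2 stood at 10.7, 8.03 and 5.93 FPKM with vehicle, at 23.6, 9.29 and 10.8 at the low dose and at 9.04, 22.6 and 24.4 at the high dose. Each digoxin group overlapped with vehicle, in each case only through the library that stands apart. The log2 fold changes were 0.68 (standard error 0.42, adjusted p = 0.223) and 1.01 (adjusted p = 0.0805), and without both libraries that stand apart they were 0.92 (adjusted p = 0.0371) and 1.44 (adjusted p = 0.0058). At the high dose the call appeared on leaving out sample 1 of that dose alone (adjusted p = 0.0121). Mmp9, a gelatinase stored in neutrophil granules, stood at 40.1, 29.0 and 30.6 FPKM with vehicle, at 36.4, 13.6 and 13.6 at the low dose and at 11.1, 30.9 and 38.8 at the high dose. Its log2 fold changes were -0.77 (adjusted p = 0.226) and -0.45 (adjusted p = 0.473), and without high-dose sample 1 the second was 0.07.

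Among membrane-type MMPs, Mmp14 was lower at both doses. Mmp14, a collagenase of the cell surface that also activates the Mmp2 precursor together with Timp2, stood at 121, 131 and 128 FPKM with vehicle, at 79.0, 97.6 and 76.6 at the low dose and at 65.9, 72.9 and 65.2 at the high dose. The 3 groups did not overlap. Mmp14 fell at the low dose by 0.59 (standard error 0.10, adjusted p = 0.00338) and at the high dose by 0.89 (standard error 0.10, adjusted p = 0.000662). Mmp15, its closest relative, stood at 1.71 ± 0.483 FPKM with vehicle and at 1.06 ± 0.0974 and 1.07 ± 0.338 with digoxin, with log2 fold changes of -0.38 at both doses (adjusted p = 0.106 and 0.0971). At the high dose the call of Mmp15 appeared without vehicle sample 2 (adjusted p = 0.0466), and quantile normalisation gave a call at both doses (adjusted p = 0.0215 and 0.0438).

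Of the remaining MMPs, Mmp19, a secreted enzyme of broad specificity, stood at 7.40, 6.86 and 6.41 FPKM with vehicle, at 20.2, 11.3 and 10.8 at the low dose and at 19.6, 17.5 and 15.5 at the high dose. All 6 digoxin samples were above vehicle. It rose by 0.89 (standard error 0.21, adjusted p = 0.0106) and 1.23 (standard error 0.21, adjusted p = 0.00253). Mmp11, a stromelysin activated by furin inside the cell, stood at 23.3, 21.1 and 25.6 FPKM with vehicle, 15.3 to 19.9 at the low dose and 13.8 to 18 at the high dose. It fell by 0.45 (adjusted p = 0.0274) and by 0.48 (adjusted p = 0.0191). Both calls of Mmp11 were lost without vehicle sample 1 or 3, and the first also without low-dose sample 2 or 3 (adjusted p up to 0.098). Mmp23, which is anchored by its own amino-terminal signal, stood at 2.24 to 2.32 FPKM with vehicle, 1.01 to 1.71 at the low dose and 0.728 to 1.13 at the high dose. It fell by 0.51 (adjusted p = 0.02) and by 0.74 (adjusted p = 0.00392), the former call being lost without any single vehicle sample and without low-dose sample 1 or 3 (adjusted p up to 0.0743).

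Mmp28, also called epilysin, split the digoxin samples. It stood at 2.99, 2.43 and 2.81 FPKM with vehicle, at 6.02, 2.11 and 7.18 at the low dose and at 1.29, 7.06 and 6.57 at the high dose. The low samples of both doses were the libraries that stand apart. Its log2 fold changes were 0.59 (standard error 0.50, adjusted p = 0.362) and 0.47 (adjusted p = 0.463), and without both libraries 1.02 (adjusted p = 0.000126) and 1.06 (adjusted p = 0.000106). At the high dose leaving out sample 1 of that dose alone gave an adjusted p of 0.0359. These choices leave out the samples nearest to vehicle at their dose, so they favour such calls. The row Mmp24os1 is an RNA from the strand opposite Mmp24 and no protease. It stood at 13.3 ± 0.93, 10.0 ± 1.18 and 9.75 ± 1.26 FPKM and fell by 0.38 (adjusted p = 0.0295) and by 0.41 (adjusted p = 0.0189). Both calls were lost without vehicle sample 1 or 2, and the first also without low-dose sample 1 or 3 (adjusted p up to 0.106). Whether reads were counted by strand is not given in the sources used here, so reads of the genes on both strands cannot be told apart there.

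Of 7 detected ADAM genes, Adam8 was higher and Adam17 and Adam19 were lower at both doses, Adam33 was higher at the low dose, and Adam9, Adam10 and Adam15 were not called. Adam8, a protease of neutrophils, macrophages and some tumour cells, stood at 44.7, 34.4 and 22.3 FPKM with vehicle, at 97.8, 64.0 and 54.0 at the low dose and at 173, 79.1 and 102 at the high dose. Every digoxin sample was above every vehicle sample, and the doses overlapped with each other. Adam8 rose by 1.08 (standard error 0.34, adjusted p = 0.035) and 1.75 (standard error 0.34, adjusted p = 0.00471). The call at the low dose was lost without vehicle sample 2 or 3 or without sample 1 or 2 at that dose (adjusted p up to 0.12), and with equal medians (adjusted p = 0.05).

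Neutrophil markers were higher with digoxin too. For macrophage and T cell markers the calls against vehicle were not alike at both doses, though none was called between the doses. The summed FPKM of 6 neutrophil markers was 49.7 to 179 with vehicle, 124 to 749 at the low dose and 487 to 1144 at the high dose, with 3 of 6 called higher at the lower dose and 5 of 6 at the higher. Over all tested genes, 21.6% were called higher and 20.7% lower at the low dose, and 20.7% higher and 25.2% lower at the high dose. The defining neutrophil gene Ly6g, among the called markers at both doses, passed the detection limit through digoxin samples only. It stood at 0.458, 0 and 0.123 FPKM with vehicle. At the low dose it stood at 2.72, 1.09 and 0.564, and at the high dose at 2.26, 2.22 and 3.33. Of 6 macrophage markers, 3 were called higher at the low dose, and at the high dose 2 were higher and 2 lower. Their sum was 1010 to 1090 with vehicle, 1317 to 2015 at the low dose and 789 to 1349 at the high dose. Of 5 tested T cell markers, 4 were called higher at the low dose, and at the high dose none was higher and 1 lower. High-dose sample 1, where Adam8 was highest, had the lowest macrophage sum of the 9 samples, at 789 FPKM, and the lowest neutrophil sum of its dose, at 487. C1qa and C1qb weighed most in that macrophage sum, at 256 and 249 FPKM. Cd68 stood at 208 FPKM in this sample, above its 98.4 to 134 with vehicle. Adgre1, Csf1r, C1qa and C1qb lay below vehicle there, and Mrc1 within it. The part of these cells in the levels of Adam8, Mmp9 and Mmp12 was not tested.

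**Figure D4:**
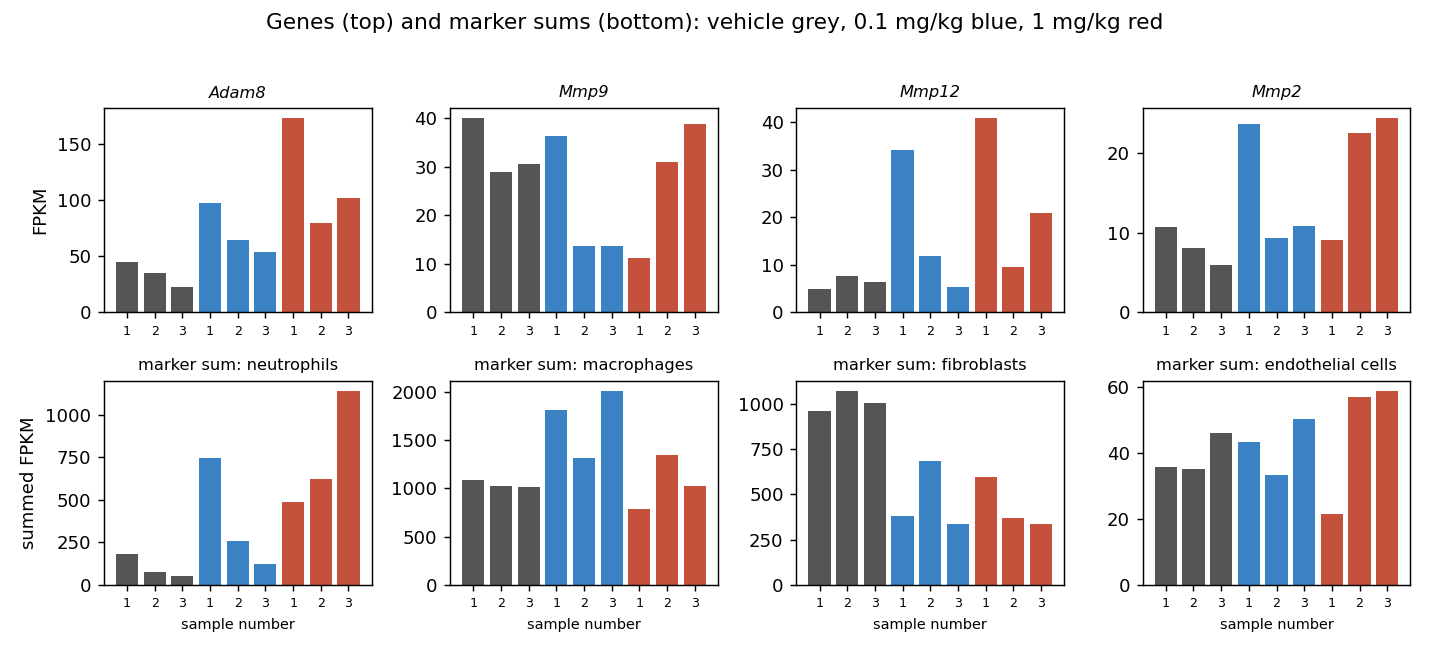
FPKM of Adam8, Mmp9, Mmp12 and Mmp2 in each sample (top) and summed FPKM of neutrophil, macrophage, fibroblast and endothelial markers in the same samples (bottom), with vehicle in grey, 0.1 mg/kg in blue and 1 mg/kg in red. The neutrophil sum reaches 749 in low-dose sample 1 and 1144 in high-dose sample 3, while Adam8 is highest, at 173 FPKM, in high-dose sample 1.

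Adam19, a protease that releases neuregulin and other membrane proteins, stood at 5.20, 6.00 and 4.14 FPKM with vehicle, at 1.55, 3.02 and 1.28 at the low dose and at 2.62, 1.53 and 1.49 at the high dose. The digoxin samples all lay below vehicle, and the highest of each dose was again the library that stands apart. Adam19 fell by 1.09 (standard error 0.24, adjusted p = 0.00831) and by 1.10 (standard error 0.24, adjusted p = 0.00684). Adam17, the main protease that releases TNF and several EGF receptor ligands, stood at 21.3, 24.6 and 23.3 FPKM with vehicle, 15.9 to 19.6 at the low dose and 14.2 to 19.3 at the high dose. It fell by 0.35 (adjusted p = 0.0476) and by 0.48 (adjusted p = 0.0135). The call at the low dose was lost without any single vehicle sample, without low-dose sample 1 or 3 and without high-dose sample 2 (adjusted p up to 0.158), with equal medians (adjusted p = 0.0527) and without the mean-variance trend (adjusted p = 0.0555), and the call at the high dose without vehicle sample 2 (adjusted p = 0.0531) or high-dose sample 3 (adjusted p = 0.0501).

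Adam10, which cleaves Notch and cadherins, stood at 32.4 ± 1.68 FPKM with vehicle, 29.9 ± 1.54 at the low dose and 29.0 ± 4.70 at the high dose, and the groups overlapped. Its log2 fold changes were -0.11 (standard error 0.11, adjusted p = 0.442) and -0.17 (adjusted p = 0.253). Adam33 stood at 0.518 to 0.734 FPKM with vehicle, 1.10 to 2.15 at the low dose and 0.742 to 2.56 at the high dose, near the detection limit, which it passed through digoxin samples only. It rose at the low dose by 0.74 (adjusted p = 0.0458), and at the high dose its log2 fold change was 0.66 (adjusted p = 0.0641). The first call was lost without any single vehicle sample, without low-dose sample 1 or 3 and without high-dose sample 3 (adjusted p up to 0.148), as under quantile normalisation (0.48, adjusted p = 0.137). The second appeared without high-dose sample 1 (adjusted p = 0.00775) and with a pseudocount of 0.01 FPKM (adjusted p = 0.0479). Adam9 gave -0.21 (adjusted p = 0.0801) and -0.17 (adjusted p = 0.13), with both digoxin groups below vehicle. Its call at the low dose appeared without both libraries that stand apart (-0.25, adjusted p = 0.0284), after rescaling to TPM (-0.33, adjusted p = 0.0245), under quantile normalisation (adjusted p = 0.0484) and in a fit of the 2 groups alone (adjusted p = 0.0483). Adam15 gave 0.16 (adjusted p = 0.368) and 0.12 (adjusted p = 0.525), and without both libraries that stand apart 0.26 (adjusted p = 0.0155) and 0.27 (adjusted p = 0.0135).

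Of 7 detected ADAMTS genes, Adamts7 and Adamts14 were higher and Adamts10 was lower at both doses, Adamts1 was lower and Adamts2 higher at the low dose, and Adamts4 and Adamts6 were not called. Adamts1, which cuts versican and aggrecan, stood at 27.1, 31.1 and 31.9 FPKM with vehicle, at 8.82, 20.4 and 9.01 at the low dose and at 39.4, 12.1 and 13.3 at the high dose. The first sample at the high dose lay above vehicle and the other 2 far below. Adamts1 fell at the low dose by 1.27 (standard error 0.44, adjusted p = 0.0455), and at the high dose its log2 fold change was -0.66 (adjusted p = 0.248). Without both libraries that stand apart these were -1.64 (adjusted p = 7.05e-06) and -1.18 (adjusted p = 2.8e-05), the latter with an adjusted p of 0.0138 when high-dose sample 1 alone was left out. The call at the low dose was lost without any single vehicle sample, without low-dose sample 1 or 3 and without high-dose sample 3 (adjusted p up to 0.141). Adamts4, a related aggrecanase, gave -0.41 (adjusted p = 0.145) and -0.15 (adjusted p = 0.59). At the low dose its call appeared without sample 1 of that dose (adjusted p = 0.0438).

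The procollagen N-proteinases trim the amino-terminal propeptide of fibrillar procollagens. Adamts14 stood at 27.9, 26.6 and 25.9 FPKM with vehicle, at 36.1, 40.0 and 43.4 at the low dose and at 35.7, 36.0 and 33.6 at the high dose. The 3 groups did not overlap, and the lower dose held the highest values. It rose by 0.55 (standard error 0.08, adjusted p = 0.00182) and 0.38 (standard error 0.08, adjusted p = 0.00655). Adamts2 stood at 0.564 to 0.669 FPKM with vehicle, 1.09 to 1.32 at the low dose and 0.773 to 1.13 at the high dose, and passed the detection limit through digoxin samples only. It rose at the low dose by 0.43 (adjusted p = 0.0204), a call lost without vehicle sample 2 or 3 or low-dose sample 1 (adjusted p up to 0.0725) and under quantile normalisation (0.16, adjusted p = 0.385). Its log2 fold change at the high dose was 0.25 (adjusted p = 0.123), and limma-voom on the recovered reads called it there (0.57, adjusted p = 0.0349).

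Adamts7, which cuts cartilage oligomeric matrix protein, stood at 2.90, 2.42 and 3.27 FPKM with vehicle, at 8.95, 3.63 and 7.32 at the low dose and at 5.06, 7.75 and 8.82 at the high dose. The lowest sample of each dose was the library that stands apart, and no digoxin sample overlapped with vehicle. Adamts7 rose by 0.92 (standard error 0.28, adjusted p = 0.0303) and 1.06 (adjusted p = 0.0156). The call at the low dose was lost without any single vehicle sample and without sample 1 or 3 of that dose (adjusted p up to 0.102), and the call at the high dose without vehicle sample 2 or high-dose sample 3 (adjusted p up to 0.0564). Adamts10, which binds fibrillin microfibrils, stood at 10.7, 14.1 and 13.4 FPKM with vehicle, at 6.54, 11.7 and 7.38 at the low dose and at 7.34, 7.10 and 6.26 at the high dose. It fell by 0.56 (adjusted p = 0.0414), where 1 sample overlapped with vehicle, and by 0.79 (adjusted p = 0.00983). The first call was lost without vehicle sample 2 or 3, low-dose sample 1 or 3, or high-dose sample 2 or 3 (adjusted p up to 0.135), and in a fit of the 2 groups alone (adjusted p = 0.0594). Adamts6 stood at 2.30 ± 0.219, 2.52 ± 0.594 and 2.33 ± 0.44 FPKM, and the sign of its small fold changes, 0.08 (adjusted p = 0.685) and 0.01 (adjusted p = 0.973), turned under quantile normalisation and under rescaling to TPM.

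The inhibitors moved in opposite directions. Timp1, an inhibitor of most secreted MMPs that acts weakly on membrane-type MMPs, stood at 81.5, 61.0 and 52.6 FPKM with vehicle, at 139, 126 and 130 at the low dose and at 115, 130 and 152 at the high dose. Timp1 rose by 1.03 at both doses (standard error 0.16, adjusted p = 0.00234 and 0.00193). Timp2, which inhibits Mmp14 and also takes part in the activation of Mmp2, stood at 172, 155 and 171 FPKM with vehicle, at 95.8, 102 and 88.9 at the low dose and at 77.6, 108 and 89.2 at the high dose. Timp2 fell by 0.79 (standard error 0.12, adjusted p = 0.00205) and by 0.86 (standard error 0.12, adjusted p = 0.00119). For neither gene did a digoxin sample overlap with vehicle.

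The FPKM of Timp1 divided by that of Timp2 was 0.475, 0.393 and 0.308 in the vehicle samples, 1.45, 1.23 and 1.46 at the low dose and 1.48, 1.21 and 1.70 at the high dose. Timp1 was thus the lower of the pair in every vehicle sample and the higher in every digoxin sample. The sum over the 4 TIMP genes was 232 ± 19.5, 228 ± 8.30 and 225 ± 27.7 FPKM, so the group sums differed by less than their spread. The FPKM of Timp2 divided by that of Mmp14 was 1.31 ± 0.117, 1.14 ± 0.0844 and 1.34 ± 0.151, and overlapped between the groups.

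The sum over the MMP genes was 330, 456 and 316 FPKM with vehicle, 290, 249 and 166 at the low dose and 253, 198 and 221 at the high dose. All digoxin samples lay below vehicle. Without Mmp3 the sums were 218 ± 1.71, 206 ± 60.0 and 209 ± 13.0 FPKM, and each digoxin group overlapped with vehicle. Mmp3 held 31.6% to 52.1% of the sum in vehicle samples, 4.37% to 24.98% at the low dose and 1.66% to 13.4% at the high dose. The MMP sum divided by the TIMP sum was 1.30, 2.11 and 1.41 with vehicle, 1.23, 1.09 and 0.757 at the low dose and 1.31, 0.826 and 0.915 at the high dose, and the groups overlapped at the high dose only. These sums and ratios are descriptions without a test, on RNA and not on protein.

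**Figure D5:**
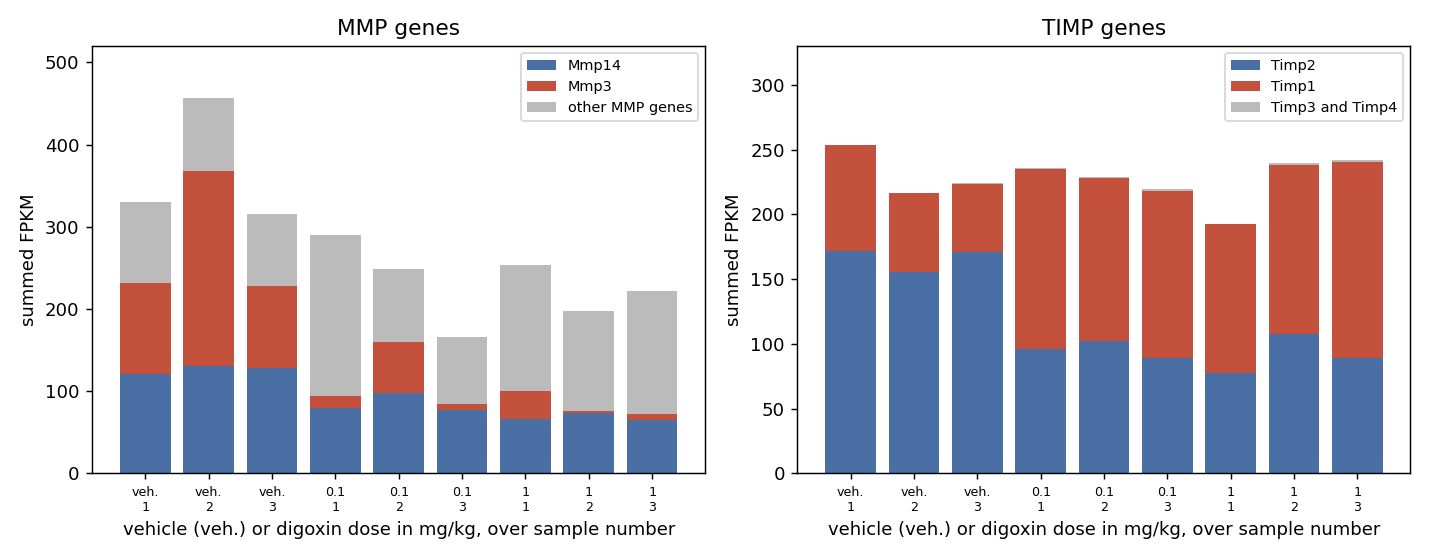
Summed FPKM (y axis, from 0) of the MMP genes (left, with Mmp14 and Mmp3 apart) and of the 4 TIMP genes (right, with Timp2 and Timp1 apart) in each of the 9 samples. The TIMP sum stays between 193 and 254 FPKM in all samples while its makeup turns from Timp2 to Timp1, and the share of Mmp3 in the MMP sum is highest in the vehicle samples.

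Markers of fibroblasts, which make much of the Mmp14 and Timp2 of many tumours, did not move as a block. The summed FPKM of 8 markers was 963 to 1075 with vehicle, 337 to 684 at the low dose and 335 to 595 at the high dose, with 3 called higher and 4 lower at the low dose and 1 higher and 5 lower at the high dose. Of all tested genes, 42.2% were called in either direction at the low dose and 45.9% at the high dose. Col3a1, Dcn, Pdgfra and Fap were lower and Col1a1 was higher at both doses. Col3a1 made most of the summed FPKM with vehicle, at 586 to 684. The sum of 6 endothelial markers was 35.2 to 46.0, 33.1 to 50.4 and 21.5 to 58.8 FPKM, with none called by limma at either dose. The part of these cells in the results was not tested.

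The other 39 members were below the detection limit in these tumours. They were 17 ADAM, 12 ADAMTS, 8 MMP and 2 TIMP genes, and 18 of them did not reach 0.1 FPKM in any sample. Adamts2 was just inside the limit, with 4 samples at 1 FPKM or more, and Timp3 just outside it, with 1. Timp3, a matrix-bound inhibitor that also acts on Adam17, stood at 0.333, 0.351 and 0.60 FPKM with vehicle, 0.638 to 0.998 at the low dose and 0.328 to 1.30 at the high dose. Timp4 had no read in any vehicle library, and stood at 0.0831, 0.0474 and 0.0901 FPKM at the low dose and at 0.10, 0.393 and 0.134 at the high dose. Set against a floor of 3 reads per vehicle library, Timp4 was at least 7.24-fold higher at the low dose and at least 20.6-fold higher at the high dose, with a bound that covers counting error only. Without low-dose sample 3 the former bound was 6.43-fold, and without high-dose sample 2 the latter was 11.5-fold. The digoxin values of Timp4 rested on 12 to 94 reads per library. In a fit of all genes without the detection limit Timp4 was not called (0.10, adjusted p = 0.468, and 0.27, adjusted p = 0.0576, limma). Timp4 is best known from heart and skeletal muscle, and the sum of 6 muscle markers was 29.1 to 95.0 FPKM with vehicle, 130 to 273 at the low dose and 40.9 to 889 at the high dose. Their part in the Timp4 level was not tested.

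In a fit of all genes without the detection limit, 3 of these 39 genes were called at the low dose and 2 at the high dose, where 14.1% and 16.1% of all 35321 genes were called. Adamts8, a proteoglycanase, stood at 0.343, 0.355 and 0.251 FPKM with vehicle, at 0.0101, 0.0404 and 0.03 at the low dose and at 0.00513, 0.0107 and 0.0267 at the high dose. The vehicle values came from 77, 82 and 60 reads and the digoxin values from 1 to 8. In that fit it fell by 0.36 (adjusted p = 0.00206) and by 0.38 (adjusted p = 0.00153). Adamts3, a procollagen N-proteinase, stood at 0.106, 0.129 and 0.277 FPKM with vehicle and at no more than 0.0182 in any digoxin sample, and fell by 0.22 (adjusted p = 0.0226) and by 0.20 (adjusted p = 0.0275). Mmp25, a membrane-type MMP of neutrophils, stood at 0.215 to 0.318 FPKM with vehicle, 0.61 to 0.805 at the low dose and 0.321 to 0.535 at the high dose, with log2 fold changes of 0.44 (adjusted p = 0.0229) and 0.15 (adjusted p = 0.356).

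Between the doses no member was called by limma, and 1 had an unadjusted p under 0.05, where 0.0146% of all tested genes were called (2 genes). Limma-voom on the recovered reads also called none of the members. The values of the doses did not overlap for 2 members (6.67%), beside 17% of all tested genes. These were Mmp14, with a log2 fold change of -0.30 (standard error 0.10, unadjusted p = 0.0162, adjusted p = 0.258, limma), and Adamts14, with -0.17 (standard error 0.08, adjusted p = 0.396). Without both libraries that stand apart, Adamts1 was called, with a log2 fold change of 0.46 (standard error 0.09, adjusted p = 0.0426). No member lay above vehicle in all samples of 1 dose and below it in all samples of the other.

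Genes that act on these proteases were read from a list of 35 regulators, of which 23 were tested. At the low dose 4 were higher and 5 lower, and at the high dose 7 were higher and 5 lower, with median log2 fold changes of -0.04 and -0.07. These are 39.1% and 52.2% of the tested regulators, near the shares of 42.2% and 45.9% over all tested genes. The counts of called regulators, 9 and 12, were 4 and 6 without vehicle sample 2 and 5 and 5 without vehicle sample 3. At the higher dose the count was 7 and 6 without high-dose sample 2 or 3. Over all tested genes, 25.5% and 31.2% were called without vehicle sample 2, and 25.4% and 30.2% without vehicle sample 3. At the higher dose 34.2% and 32.5% were called without high-dose sample 2 or 3, so the share fell over all genes as well. Of the 9 called at both doses, Sh3pxd2b, a scaffold of the invasive cell protrusions that carry Mmp14, fell by 0.42 (adjusted p = 0.00299) and by 0.61 (adjusted p = 0.000696). Thbs2, a thrombospondin that helps clear Mmp2, fell by 0.60 at both doses (adjusted p = 0.00967 and 0.00868). Pcolce, the enhancer of procollagen C-proteinase, rose by 0.63 and 0.61 (adjusted p = 0.0133 and 0.0127). Adamtsl4, an ADAMTS-like protein without a protease domain, rose by 0.60 and 0.90 (adjusted p = 0.0207 and 0.00365). Tspan5, a tetraspanin partner of Adam10, fell by 0.93 and by 1.08 (adjusted p = 0.0493 and 0.0272), and Lrp1, an uptake receptor for MMPs and TIMPs, by 0.55 and by 0.45 (adjusted p = 0.0199 and 0.039). The calls of Tspan5 and Lrp1 were lost at both doses without any single vehicle sample, among others (adjusted p up to 0.164 and 0.125). At the low dose the calls of Adamtsl4, without vehicle sample 2 or 3 or sample 1 at that dose, and of Pcolce, without vehicle sample 2, were lost too (adjusted p up to 0.0746 and 0.0507).

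Of 40 listed substrates, 34 were tested, with 11 higher and 10 lower at the low dose and 14 higher and 10 lower at the high dose. These are 61.8% and 70.6%, beside 42.2% and 45.9% of all tested genes. Of the called substrates, Tgfa passed the detection limit through digoxin samples only and Cdh2 through vehicle samples only. The median log2 fold changes were 0.14 and 0.29, and 19 genes were called at both doses. Among matrix substrates, Fbn1, which encodes fibrillin, fell by 1.64 (adjusted p = 0.00326) and by 1.97 (adjusted p = 0.00135). Col3a1, a fibrillar collagen chain, fell by 1.76 and by 1.84 (adjusted p = 0.0151 and 0.0113), and Col1a1, another such chain, rose by 1.41 and 1.86 (adjusted p = 0.00913 and 0.00261). Among shed membrane proteins, Tnf, a cytokine released by Adam17, rose by 1.43 and 2.11 (adjusted p = 0.0262 and 0.00504), and Ereg, an EGF receptor ligand, by 0.91 and 2.16 (adjusted p = 0.0488 and 0.00156). The adhesion protein gene L1cam fell by 1.70 and by 1.86 (adjusted p = 0.039 and 0.0257). Without any single vehicle sample the calls of Tnf and Ereg at the low dose and of L1cam at both doses were lost (adjusted p up to 0.085, 0.156 and 0.134), as they were without low-dose sample 1 or 3 for all 3 genes at that dose. The low-dose call of Ereg was also lost under quantile normalisation (adjusted p = 0.0683), equal medians (adjusted p = 0.0692) and limma-voom (adjusted p = 0.0771), among others. Col3a1 lost its call at the low dose without vehicle sample 2 or without sample 1 or 3 at that dose (adjusted p up to 0.0594).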

How the data were processed

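One table of FPKM for 35321 genes in 9 samples was deposited by the authors. Per the labels, poly(A) RNA libraries were sequenced as read pairs on an Illumina NovaSeq instrument. The submitters' processing notes name the trimmer fastp (0.22.0), the aligner HISAT2 (2.2.1) and the build GRCh38. That build is human while the symbols are those of mouse genes, so the only coordinates printed are those of RefSeq promoters on GRCm38.p6. Which counter, annotation and strand setting made the values is not given in the sources used here.

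The deposited FPKM were transformed to log2(FPKM + 1). The 13687 genes that reached 1 FPKM in 3 or more of the 9 samples were tested with limma 3.58.1 in R 4.3.3. One fit held all 9 samples with 1 mean per group, a mean-variance trend and no replicate block, with two-sided moderated tests, adjusted by Benjamini-Hochberg across every tested gene (threshold 0.05). A gene is called where it passes this. The replicate numbers did not pair the samples. No 2 samples held identical values. This step was also run on simulated data with independent noise and few changed genes. That setting is unlike these samples, so the run does not bear on the calls here.

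Depths were recovered from the spacing of the FPKM values with GENCODE M21 exon lengths. Of 13040 tested genes with an annotated length, 95.62% gave whole reads in all samples within 0.03 reads, as did 65 of the 69 members. Lengths were fitted for the other 4 members. It is not stated whether 1 read means a read or a pair. These reads were used for floors of 3 reads and for limma-voom as an alternative. Limma-voom called 20 and 18 members at 0.1 and 1 mg/kg, beside 44.2% and 46.3% of the 12471 genes it tested.

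The members and the regulator, substrate and marker lists were chosen with earlier results of these data known. Named with values were members called in at least 1 comparison with vehicle without overlap of the samples (in full for the 16 largest changes), all detected TIMPs, Mmp2, Mmp9, Mmp14, Adam10, Adam17, and up to 6 genes of the regulator and substrate lists that were called at both doses. Some further members are given by value after their values were seen. Of the 69 members, 40 matched a RefSeq promoter window by symbol. One symbol that fits the name rule is not reported here and enters no sum. Python 3.11.15, pandas 2.3.3 and matplotlib 3.10.9 were used for the rest.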

Additional observations from a re-analysis of the deposited data

How the results depend on the processing

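Beside the 20, 17 and 0 members called at the low dose, at the high dose and between the doses, the fit without a filter called 7 at the low dose, where more genes entered the adjustment and 14.1% of all genes were called, and a threshold that includes a 2-fold change left 7 and 8, beside 8.93% and 10% of all tested genes. Leaving out 1 library at a time gave 8 to 20 at the low dose and 12 to 19 at the high dose. The share over all tested genes then ran from 24.9% to 51.7% and from 30.2% to 53.9%. Leaving out both libraries that stand apart and limma-voom were added after seeing the data. The former favours a difference from vehicle on the first principal component. It gave 24, 21 and 1, where 61.5%, 61.3% and 3.4% of all tested genes were called. Of the 20 and 17 calls, 7 and 10 held without each library in turn, and 6 and 10 under every alternative. Rescaling to TPM moved the median log2 fold change of all tested genes at the high dose from -0.04 to -0.125. After it, 17 members were called at that dose, beside 48.4% of all tested genes.

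Signs turned for uncalled genes only, and the cause was not tested. Adamts6 at the low dose was at -0.031 under quantile normalisation, -0.005 after rescaling to TPM and -0.046 without both libraries, and ran from -0.046 to 0.195 with 1 library left out. Adamts6 at the high dose was at -0.025 under quantile normalisation, -0.069 after rescaling to TPM and -0.098 without both libraries, and ran from -0.098 to 0.078. Adamts4 and Mmp9 at the high dose were at 0.032 and 0.072 without both libraries, and ran from -0.305 to 0.032 and from -0.785 to 0.072.

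With the replicate number as a block, 15, 17 and 0 members were called, beside 36.3%, 40.5% and 0% of all tested genes. Over 9 pairs of samples with the same number the correlation of deviations from the group means ran from -0.441 to 0.279, it was over 0.1 in 3, and 3 of 9 samples correlated best with their own number, so the numbers do not pair the samples. With 3 samples per group and shared vehicle libraries, fold changes with standard errors above 0.4, as for Mmp3, Mmp12, Mmp13 and Mmp28, are known poorly. Of the members below 1 FPKM many rest on few reads, while Adamts9, a long gene, had 191 to 593 per library.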
